A study of Mus musculus with 8 samples.

Results

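Genes that carry out the meiotic divisions were followed in testes that lack MIWI: 35 genes for CDK1 and its cyclins, division kinases, kinetochores, the anaphase switch, spindle motors and cytokinesis. They were chosen by symbol from the deposited tables, which hold 21949 genes, and the transcript with the highest mean count over the 8 libraries stood for each gene. All 35 were in the tables and all 35 passed the filter on low counts. The mice were C57BL/6, taken at postnatal day 24, and either wild type (WT) or Miwi-null. Miwi is another name for Piwil1, which encodes a PIWI protein that binds piRNAs in spermatocytes and round spermatids. Testis lysates gave total RNA libraries and libraries of ribosome-protected fragments (RPF, the mRNA pieces that a ribosome shields from nuclease), with 2 libraries for each genotype and assay. The labels describe the null allele no further and do not say whether a library came from 1 animal or a pool. The p-values therefore measure the spread between these libraries, which may be partly technical. The spread of each gene was fitted over RNA and footprint libraries together. Footprint p-values thus rest in part on the RNA replicates, and RNA p-values on the footprint replicates.

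Entry into division is driven by the kinase CDK1 bound to B-type and A-type cyclins and switched on by CDC25 phosphatases. Polo and Aurora kinases then build the spindle and correct its attachments, while kinetochores join chromosomes to microtubules and hold back anaphase through the checkpoint. CDC20 ends that block by steering the anaphase-promoting complex to securin and cyclin B, which frees separase to cut cohesin, and shugoshin shields cohesin at centromeres. In the testis these genes serve spermatogonial mitosis and the meiotic divisions, and many of their mRNAs accumulate in pachytene spermatocytes before the cells divide.

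Counts in the chosen transcripts ranged from 11130954 to 28334618 per library. Piwil1 had 8215 and 7165 counts in WT RNA against 46 and 26 in null RNA, and 14206 and 6868 in WT footprints against 37 and 94 in null footprints, as the labels have it. Footprint replicates spread further than RNA replicates: the chi-square per gene between replicates was 3.85 for WT and 1.18 for null in RNA, and 44.1 for WT and 22.4 for null in footprints. Marker genes of germ cell stages and of somatic cells moved with genotype. All 12 elongating spermatid markers were lower in null RNA, with summed levels of 17023 to 17372.5 CPM, counts relative to the scaled library size, in WT and 2226 to 2229 in null. Of 12 pachytene to diplotene markers 7 were higher and 1 lower, with sums of 6595 to 6649 CPM in WT RNA and 6872 to 6929 in null RNA. Ldhc (mean 2343 CPM in WT RNA and 2488 in null) and Hspa2 (2428 and 1876) weighed most in these sums. The median log2 change of that list was 0.46, with 10 markers above 0 and 2 below. Of 11 tested spermatogonial markers 5 were lower and 0 higher, with sums of 236 to 249.5 CPM in WT RNA and 176 to 180.04 in null RNA. Round spermatid markers summed to 2034 to 2073 CPM in WT RNA and 1308 to 1331 in null RNA, with 4 of 12 lower. Tssk1 (mean 465 CPM in WT RNA and 250 in null) and Tssk2 (568 and 144) had the largest falls in that sum. The median log2 change of the list was -0.13, with 4 markers above 0 and 8 below. In footprints 8 of these 12 markers were lower, with sums of 2417 to 2523 CPM in WT and 1533 to 1589 in null. Among somatic lists, Leydig markers summed to 1227 to 1241 CPM in WT RNA and 2322 to 2333 in null RNA, with 4 of 8 higher and 1 lower, and in footprints to 2488 to 2591 and 8083 to 9016. Of 10 Sertoli markers 8 were lower in RNA, and of 7 peritubular myoid markers 6, with sums of 430.4 to 450.4 CPM in WT and 153 to 158 in null. In footprints 4 Sertoli markers were lower and 1 higher, with sums of 4958 to 5267 CPM in WT and 4796 to 4925 in null. Of the myoid markers 2 were lower in footprints, with sums of 517 to 596 CPM in WT and 405 to 443 in null. Over all genes tested 16.5% were higher and 20.8% lower in RNA, and 12% and 13.3% in footprints. No marker list had a gene listed at 0 in all libraries. In whole testes fewer cells of a type and less RNA per cell cannot be told apart, and the part of these shifts in the results for the division genes was not tested.

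In total RNA the division genes split: 10 rose and 4 fell in the null testes, which is 14 of 35 or 40.0%. Over all genes tested 37.3% were called, 16.5% higher and 20.8% lower, so the share called among the division genes lay near the background. The median log2 change was 0.07 over the 35 genes and -0.07 over all 16051 genes tested. The libraries of the genotypes did not overlap for 33 of the 35 genes, 16 with null above WT and 17 below, where 77.8% of all genes tested did not overlap. Among footprints 7 genes rose and 1 fell, or 22.9% called against 25.4% of all genes, which were 12% higher and 13.3% lower. The groups did not overlap in footprints for 17 genes with null above WT and 3 below, and 15 overlapped, against 57.5% of all genes without overlap. With each assay fitted alone, 59.3% of all genes were called in RNA and 12.7% in footprints. The footprint calls of Ttk, Incenp, Cenpf, Sgo2a, Kif23 and Anln then ended (edgeR adjusted p from 0.0538 to 0.18), while those of Cenpe and Ccna2 held. In RNA, Cdk1, Ccna1, Cks2, Aurka, Birc5, Incenp and Cdca8 then also passed as falls. Ccnb2, Nuf2, Ndc80, Tpx2, Kif20a and Top2a also passed as rises. With library totals in place of the TMM scaling, calls over all genes went from 2641 higher and 3343 lower to 3143 higher and 2561 lower in RNA, and those of the division genes from 10 and 4 to 11 and 3. With limma-voom, which called 53.3% of all genes in RNA, Cdk1, Ccna1, Aurka and Cdca8 also passed as falls and Top2a as a rise. Single libraries moved the counts, over all genes as well as here. In both assays fewer of all genes passed whichever RNA library was left out, and more passed without WT RPF replicate 2. Without WT RNA replicate 1, 6 division genes rose in RNA, and only 1 fell without WT RNA replicate 1, null RNA replicate 1 or null RNA replicate 2, while 7 fell without WT RPF replicate 2. In footprints 2 rose without any of the 4 RNA libraries, 3 without null RPF replicate 1 and 4 without null RPF replicate 2, and 3 fell without WT RPF replicate 2.

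**Figure D1:**
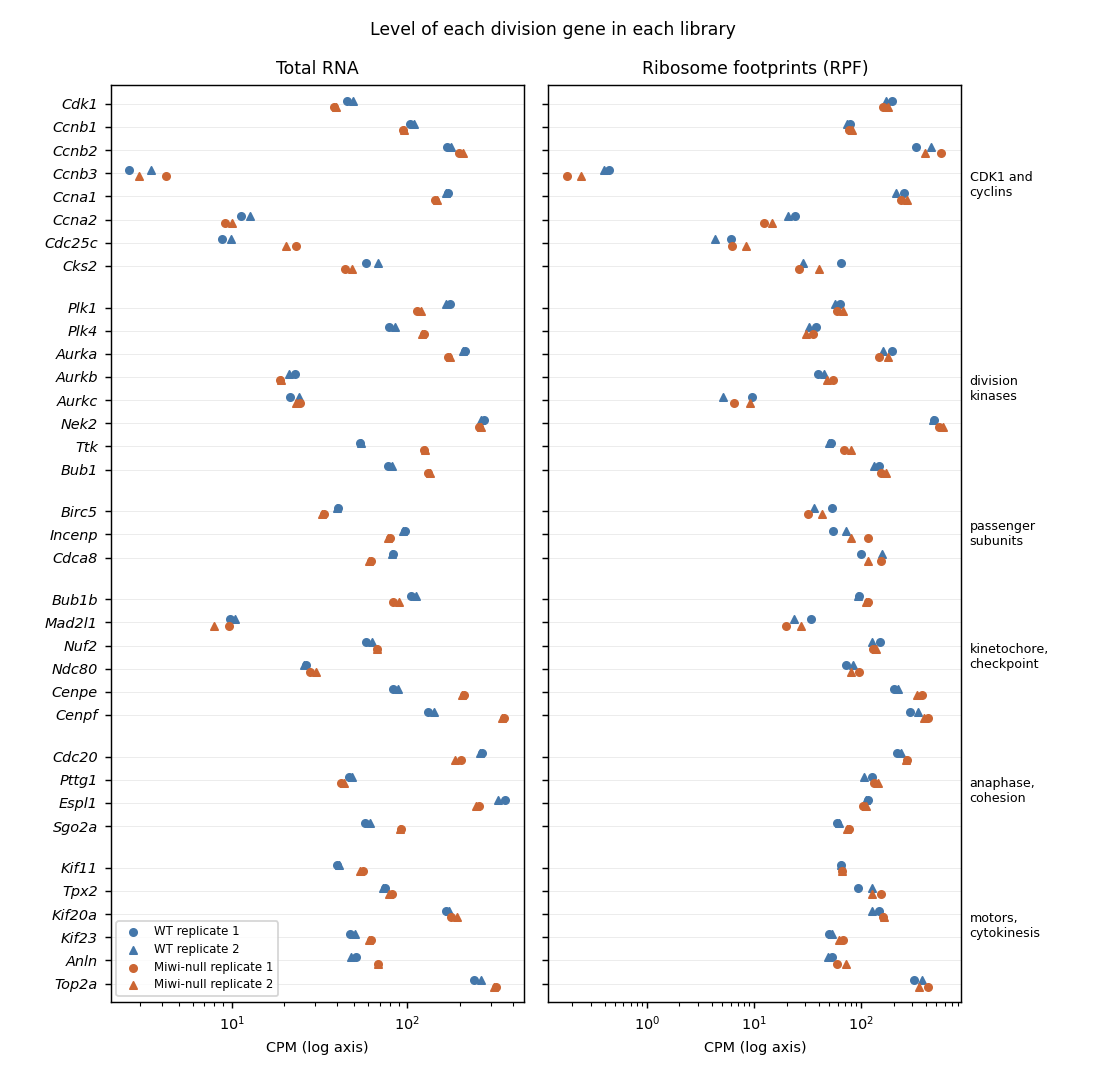
Level of each of the 35 division genes in each of the 8 libraries, in CPM on a log axis, for total RNA (left) and footprints (right). Circles are replicate 1 and triangles replicate 2, blue for WT and orange for Miwi-null. In RNA the colours separate for 33 genes, while in footprints they mix for 15.

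Promoters are shown for the genes with the largest RNA changes, since late cell cycle genes are known for CCAAT boxes near a cell cycle homology region (CHR). The RefSeq promoter table (GRCm38.p6) held windows for 29 of the 35 genes, 30 windows of the 250 bases before its listed start site. A CCAAT box was searched as CCAAT on either strand and a CHR as TTTGAA or TTTAAA on either strand, and these motifs share no overlap. A CCAAT box stood in 20 of 29 genes (69.0%, against 37.5% of all genes in the table) and a CHR match in 12 (41.4% against 28.1%). Both stood in 9 genes, or 31.0% against 10.1% of all genes. These counts took matches anywhere in the window, whatever their spacing or order. In Plk1, for instance, the only CCAAT match lies downstream of both CHR matches. A match is a run of letters and not a shown binding site. All 4 genes that fell in RNA held a CCAAT box and 3 of them a CHR match. Of the 9 risers with a window, 7 held a CCAAT box and 3 a CHR match, and of 16 genes not called, 9 and 6. The windows below are those of the 3 largest falls and of the 3 largest rises that the table holds. They run 5′ to 3′ on the gene's strand to the base before the listed start site, with CCAAT and CHR matches in capitals. For Ttk, Espl1 and Cenpf the listed start lies inside the gene span given with each gene further below. Their windows thus end within that span, as do the last marked matches of Ttk and Espl1.
Plk1 (chr7:122159185-122159434, plus strand): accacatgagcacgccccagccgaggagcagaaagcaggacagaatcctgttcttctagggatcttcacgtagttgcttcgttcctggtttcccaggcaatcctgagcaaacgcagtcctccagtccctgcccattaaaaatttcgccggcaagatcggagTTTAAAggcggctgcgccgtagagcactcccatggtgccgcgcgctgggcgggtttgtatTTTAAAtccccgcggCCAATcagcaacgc
Cdc20 (chr4:118437344-118437593, minus strand): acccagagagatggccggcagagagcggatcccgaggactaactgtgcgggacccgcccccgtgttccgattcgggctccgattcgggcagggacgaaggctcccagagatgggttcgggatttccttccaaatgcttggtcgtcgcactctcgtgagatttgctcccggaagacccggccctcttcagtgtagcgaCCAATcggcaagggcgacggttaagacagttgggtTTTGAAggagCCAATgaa
Espl1 (chr15:102296043-102296292, plus strand): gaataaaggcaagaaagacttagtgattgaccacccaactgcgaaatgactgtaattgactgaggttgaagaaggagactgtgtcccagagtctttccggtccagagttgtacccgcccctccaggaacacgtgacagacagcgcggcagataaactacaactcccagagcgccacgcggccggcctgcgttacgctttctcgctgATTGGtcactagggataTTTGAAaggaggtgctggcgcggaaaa
Cenpf (chr1:189688087-189688336, minus strand): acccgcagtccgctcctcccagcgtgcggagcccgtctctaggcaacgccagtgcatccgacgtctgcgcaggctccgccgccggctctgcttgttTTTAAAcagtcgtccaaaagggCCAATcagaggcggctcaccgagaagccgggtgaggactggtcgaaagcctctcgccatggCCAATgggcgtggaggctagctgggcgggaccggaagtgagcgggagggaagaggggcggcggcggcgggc
Cenpe (chr3:135212313-135212562, plus strand): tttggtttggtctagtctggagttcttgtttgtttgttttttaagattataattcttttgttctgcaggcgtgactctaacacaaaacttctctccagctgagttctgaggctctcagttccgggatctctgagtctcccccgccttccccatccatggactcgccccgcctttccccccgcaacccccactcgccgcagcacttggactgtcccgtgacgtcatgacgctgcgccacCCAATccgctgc
Ttk (chr9:83834439-83834688, plus strand): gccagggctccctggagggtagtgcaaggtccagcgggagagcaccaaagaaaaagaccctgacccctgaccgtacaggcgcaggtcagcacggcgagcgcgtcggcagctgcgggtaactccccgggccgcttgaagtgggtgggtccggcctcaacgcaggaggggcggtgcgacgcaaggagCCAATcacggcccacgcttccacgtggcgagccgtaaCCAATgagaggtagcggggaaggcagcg
Plk1, Cdc20 and Espl1, which fell in RNA, each held both motifs, and of the 3 risers only Cenpf did. Cenpe and Ttk held the CCAAT box alone.

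Among the 8 genes for CDK1, cyclins and their regulators, 1 was called in RNA, the activating phosphatase Cdc25c, against 37.3% of all genes. Its RNA stood at 8.87 and 9.90 CPM in WT and at 23.1 and 20.3 in null. The null libraries were both higher, and the rise was 1.21 ± 0.20 on the log2 scale (SE; edgeR adjusted p = 0.00191). Its footprints, 6.04 and 4.31 CPM in WT and 6.25 and 8.39 in null, differed by 0.51 ± 0.21, which did not pass (edgeR adjusted p = 0.109). Ccna2, the A-type cyclin of dividing somatic cells and spermatogonia, was the only division gene called lower in footprints. It had 24.0 and 20.7 footprint CPM in WT against 12.2 and 14.6 in null, a fall of 0.73 ± 0.15 on the log2 scale (edgeR adjusted p = 0.00683). Its RNA, 11.3 and 12.8 CPM in WT and 9.19 and 10.03 in null, differed by -0.33 ± 0.16 (edgeR adjusted p = 0.142). Ccna2 and Cdc25c had at most 302 RNA counts in any library, so counting error weighs more on them than on the abundant genes of the list. Beside the Ccna2 fall, spermatogonial markers summed to 525 to 607 CPM in WT footprints and to 466 to 525 in null footprints, and DNA replication markers to 609 to 718 and 687 to 764. Their part in that fall was not tested.

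Ccna1, the A-type cyclin of male meiosis, did not pass in either assay. Its RNA was 170.3 and 167 CPM in WT and 145 and 148 in null (log2 difference -0.21 ± 0.12, edgeR adjusted p = 0.199). Its footprints were 253 and 209 CPM in WT and 233 and 268 in null, so that the genotypes overlapped. Cdk1, the kinase itself, gave a log2 RNA difference of -0.29 ± 0.11 (edgeR adjusted p = 0.068) and a footprint difference of -0.12 ± 0.10 (edgeR adjusted p = 0.43). The B-type cyclins Ccnb1 and Ccnb2 differed by -0.16 ± 0.09 and 0.23 ± 0.19 in RNA and by 0.06 ± 0.09 and 0.30 ± 0.18 in footprints, none called. Both have pseudogene copies in the mouse genome, Ccnb1-ps and Ccnb2-ps, and how fragments that map to more than 1 place were counted is not given in the sources used here, so their values are uncertain. Cks2, a small CDK1-binding subunit, ranged widely between replicates, from 28.7 to 63.9 footprint CPM in WT. Ccnb3, a cyclin of early meiotic prophase, was close to absent, with 39 and 47 RNA counts in WT, 55 and 34 in null, and 2 to 13 footprint counts in any library.

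Of the 8 division kinases 4 were called in RNA, against 37.3% of all genes: Ttk, Bub1 and Plk4 rose and Plk1 fell. Ttk, the checkpoint kinase also called MPS1 (chr9:83834651-83872390), stood at 53.7 and 54.7 CPM in WT RNA and at 124 and 126 in null. The rise was 1.21 ± 0.10 on the log2 scale (edgeR adjusted p = 5.87e-05). In footprints Ttk went from 51.9 and 49.8 CPM to 69.5 and 79.5, a rise of 0.55 ± 0.10 (edgeR adjusted p = 0.00428). The null libraries were higher in both assays. With the footprint libraries fitted alone the footprint call ended (edgeR adjusted p = 0.0538). Bub1, the kinase that marks centromeres for shugoshin and the passenger complex, had 78.0 and 81.7 RNA CPM in WT and 131 and 135 in null. It rose by 0.74 ± 0.10 (edgeR adjusted p = 0.000833). Its footprints, 147 and 131 CPM in WT and 154 and 171 in null, stayed under the threshold at 0.23 ± 0.10 (edgeR adjusted p = 0.138).

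Plk4, which starts centriole duplication, and Plk1, the polo kinase of mitotic and meiotic entry, moved in opposite directions in RNA. Plk4 went from 79.0 and 85.5 RNA CPM to 124 and 121, a rise of 0.57 ± 0.11 (edgeR adjusted p = 0.0048). Plk1 (chr7:122159435-122169884) went from 174 and 166 RNA CPM to 114 and 119.8, a fall of 0.55 ± 0.11 on the log2 scale (edgeR adjusted p = 0.00428). The libraries did not overlap for either gene. The Plk4 call ended without WT RNA replicate 1 (edgeR adjusted p = 0.0547) and the Plk1 call without null RNA replicate 1 (edgeR adjusted p = 0.0571). In footprints both overlapped between the genotypes: Plk4 had 37.3 and 32.7 CPM in WT and 35.2 and 30.6 in null, and Plk1 63.4 and 56.2 in WT and 59.3 and 66.6 in null.

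The Aurora kinases and Nek2, a centrosome kinase abundant in spermatocytes, were not called in any contrast. Aurka, the spindle pole kinase, differed by -0.28 ± 0.13 in RNA and by -0.13 ± 0.13 in footprints. Aurkb, the mitotic passenger kinase, differed by -0.21 ± 0.13 and 0.27 ± 0.12, and Aurkc, its germ cell counterpart, by 0.07 ± 0.26 and 0.08 ± 0.27. Nek2 had the second highest RNA level per coding length of the list, 159 FPKM in WT and 161 in null, with a log2 RNA difference of -0.05 ± 0.08 and a footprint difference of 0.22 ± 0.08 (edgeR adjusted p = 0.0862). The 3 passenger subunits that carry these kinases to centromeres, Birc5, Incenp and Cdca8, were not called in RNA (-0.27 ± 0.20, -0.28 ± 0.19 and -0.43 ± 0.20). With the RNA libraries fitted alone all 3 passed as falls (edgeR adjusted p = 0.0373, 0.00743 and 7.16e-05), where 59.3% of all genes were called. Incenp, the scaffold of the complex, rose in footprints by 0.62 ± 0.19 (edgeR adjusted p = 0.0397), from 54.2 and 72.6 CPM in WT to 115 and 80.0 in null. The groups did not overlap, but the replicates within each lay far apart. The call ended without any RNA library, without WT RPF replicate 1 or without null RPF replicate 1, with edgeR adjusted p from 0.0727 to 0.206.

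At the kinetochore, Cenpf and Cenpe had the largest RNA rises of the list. Cenpf, a large coiled-coil protein of the outer kinetochore (chr1:189640606-189688107), stood at 132 and 142 CPM in WT RNA and at 356 and 347 in null. It rose by 1.36 ± 0.11 on the log2 scale, or 2.57-fold (edgeR adjusted p = 4.35e-05). Its footprints went from 287 and 335 CPM to 422 and 383, a smaller rise of 0.37 ± 0.11 (edgeR adjusted p = 0.0315). That footprint call ended without any of the 4 RNA libraries, WT RPF replicate 1 or null RPF replicate 1, with edgeR adjusted p from 0.0608 to 0.136. It also ended when the length trend was taken out (0.18, edgeR adjusted p = 0.194). Cenpe, the kinesin that moves chromosomes toward the spindle equator (chr3:135212563-135273540), stood at 83.1 and 88.3 RNA CPM in WT and 211 and 204 in null. It rose by 1.27 ± 0.10, or 2.42-fold (edgeR adjusted p = 3.54e-05). Cenpe footprints rose as well, from 203 and 220.4 CPM to 366 and 334, by 0.73 ± 0.09 (edgeR adjusted p = 0.000708). Both genes separated the genotypes in both assays.

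The other kinetochore and checkpoint genes changed little or in the opposite direction. Bub1b, the checkpoint protein BUBR1, had 105 and 112 RNA CPM in WT and 82.9 and 89.9 in null, a fall of 0.33 ± 0.09 on the log2 scale (edgeR adjusted p = 0.0252). That call ended without any of the 4 RNA libraries or null RPF replicate 2 (edgeR adjusted p from 0.0683 to 0.209). It also ended with library totals in place of TMM (-0.23, edgeR adjusted p = 0.106). Its footprints, 95.2 and 92.9 CPM in WT and 114 and 109.6 in null, differed by 0.25 ± 0.09 (edgeR adjusted p = 0.0824), so RNA and footprints lay on opposite sides of 0. Ndc80 and Nuf2, partners in the complex that grips microtubules, differed in RNA by 0.16 ± 0.13 and 0.14 ± 0.12 and in footprints by 0.17 ± 0.13 and -0.04 ± 0.11. Mad2l1, the checkpoint effector MAD2, differed by -0.20 ± 0.24 and -0.27 ± 0.20. None of these 3 was called in any contrast.

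Of the 4 genes of anaphase and cohesion 3 were called in RNA, against 37.3% of all genes: Cdc20 and Espl1 fell and Sgo2a rose. Cdc20, the activator of the anaphase-promoting complex (chr4:118432901-118437343), went from 265 and 258 RNA CPM in WT to 202 and 187 in null. The fall was 0.43 ± 0.09 on the log2 scale (edgeR adjusted p = 0.00619). It lost its call without WT RNA replicate 1 (edgeR adjusted p = 0.0515) or null RNA replicate 2 (edgeR adjusted p = 0.0886). Cdc20 footprints were 216 and 232 CPM in WT and 268 and 263 in null, higher in both null libraries but under the threshold at 0.25 ± 0.09 (edgeR adjusted p = 0.0755). Espl1, which encodes separase (chr15:102296254-102324357), went from 359 and 326 RNA CPM to 256 and 248, a fall of 0.44 ± 0.09 (edgeR adjusted p = 0.00594). Its call ended without WT RNA replicate 1, null RNA replicate 1 or null RNA replicate 2 (edgeR adjusted p from 0.055 to 0.0725). Its footprints were nearly level, 115 and 110.5 CPM in WT and 103 and 110.3 in null.

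Sgo2a, the shugoshin that shields centromeric cohesin through the first meiotic division, had 57.3 and 61.1 RNA CPM in WT and 92.1 and 90.8 in null. It rose by 0.63 ± 0.09 (edgeR adjusted p = 0.00109), and its footprints rose by 0.30 ± 0.09 (edgeR adjusted p = 0.0402), from 59.5 and 62.0 CPM to 76.2 and 73.9. The null libraries were the higher ones in both assays. The footprint call was weak: it ended without any single library other than WT RPF replicate 2 (edgeR adjusted p from 0.0653 to 0.135), with library totals (edgeR adjusted p = 0.0796) and with the length trend removed (edgeR adjusted p = 0.0706). Pttg1, the separase inhibitor securin, was not called (-0.15 ± 0.11 in RNA and 0.25 ± 0.11 in footprints). For Cdc20, Bub1b, Pttg1, Nek2, Aurkb and Incenp, null RNA lay below WT in every library while null footprints lay above. These 6 genes were singled out after their values were seen. Of all genes tested 77.8% did not overlap in RNA and 57.5% in footprints. The share that separated in opposite directions was not counted, so these 6 have no background to be set against.

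Of the 6 genes of motors, spindle assembly, cytokinesis and chromosome structure 3 rose in RNA, where 16.5% of all genes did. All 6 had log2 differences above 0 in both assays, as had 7180 of the 16051 genes tested in RNA and 7905 in footprints. With 6 genes and no test of the group, these counts are a description. Kif11, the motor that pushes spindle poles apart, went from 40.0 and 41.0 RNA CPM in WT to 56.2 and 53.9 in null, a rise of 0.44 ± 0.09 (edgeR adjusted p = 0.006). Its footprints differed by 0.04 ± 0.09. Without WT RNA replicate 1 or null RNA replicate 1 the RNA call ended (edgeR adjusted p = 0.0508 and 0.0658). Kif23, a kinesin of the spindle midzone, rose by 0.33 ± 0.10 in RNA (edgeR adjusted p = 0.0328) and by 0.34 ± 0.10 in footprints (edgeR adjusted p = 0.0372). Anln, the anillin of the cleavage furrow, rose by 0.45 ± 0.12 (edgeR adjusted p = 0.0171) and by 0.38 ± 0.12 (edgeR adjusted p = 0.0448). The footprint change of each was close to its RNA change. In RNA both ended without any of the 4 RNA libraries, with edgeR adjusted p from 0.0795 to 0.179 for Kif23 and from 0.0681 to 0.11 for Anln. In footprints the Kif23 call held without 1 library alone, WT RPF replicate 2 (edgeR adjusted p otherwise from 0.0505 to 0.161). The Anln footprint call ended without any RNA library, WT RPF replicate 2 or null RPF replicate 2 (edgeR adjusted p from 0.0784 to 0.206). With the length trend removed neither gene passed in either assay. Tpx2, a spindle assembly factor, Kif20a, a kinesin of the midzone, and Top2a, the topoisomerase that untangles chromosomes, were not called (0.13 ± 0.15, 0.13 ± 0.10 and 0.33 ± 0.12 in RNA). Top2a passed in RNA with library totals (0.43, edgeR adjusted p = 0.0135) and with TMM within each assay (0.40, edgeR adjusted p = 0.0344). It also passed with limma-voom (0.33, limma adjusted p = 0.00393) and with the RNA libraries alone (0.40, edgeR adjusted p = 8.47e-07).

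**Figure D2:**
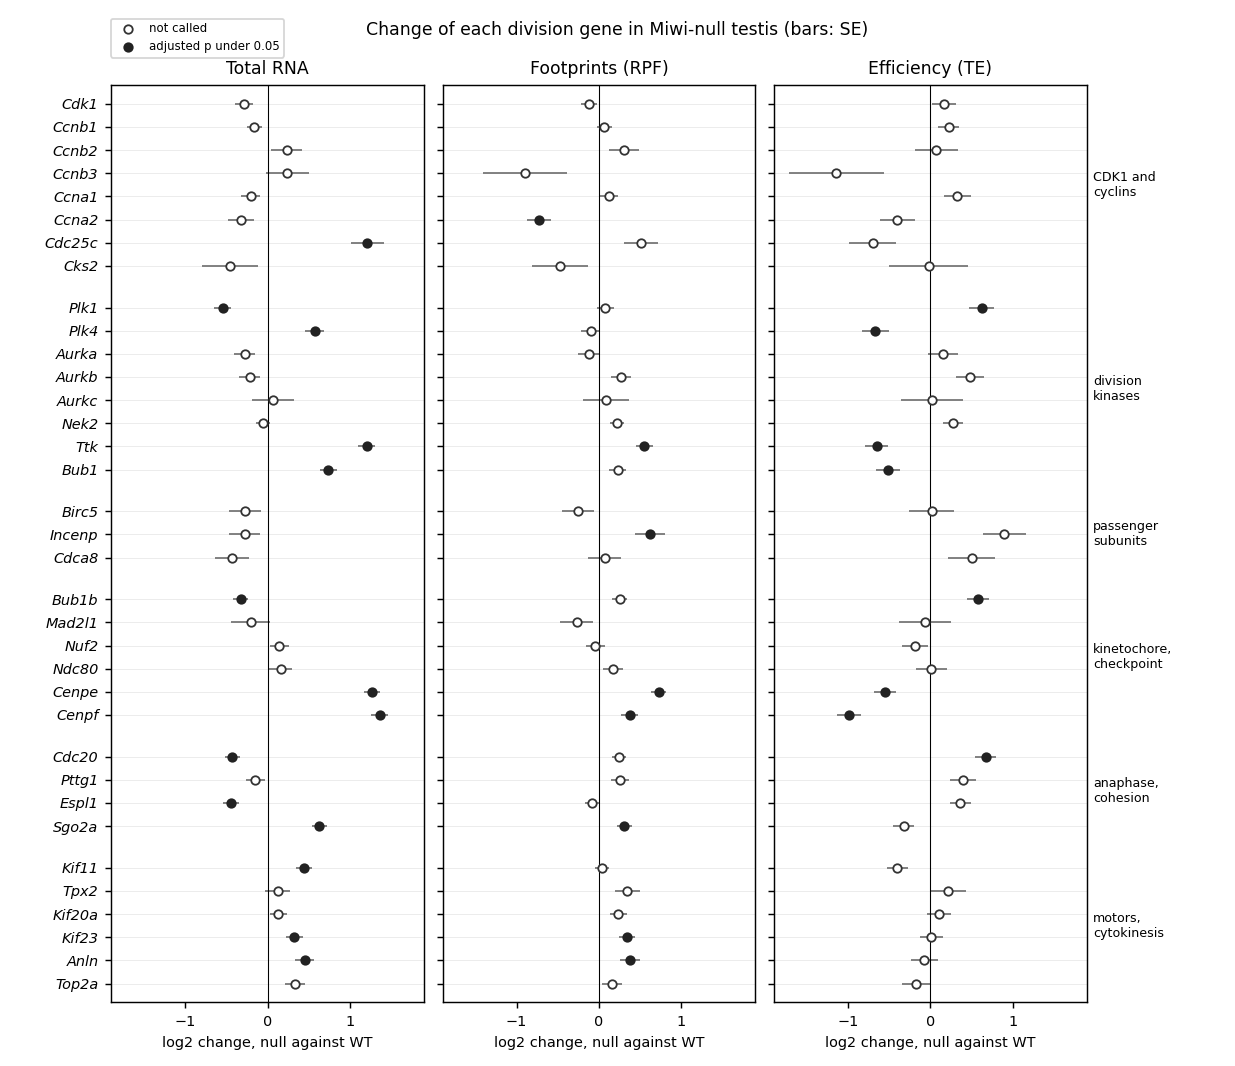
Log2 change of each of the 35 division genes, null against WT, in total RNA, footprints and translational efficiency (TE), with bars for the SE and filled points for edgeR adjusted p under 0.05. The filled points number 14 in RNA, 8 in footprints and 8 in TE.

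Translational efficiency, the authors' deposited ratio of footprint FPKM to RNA FPKM, differed far more between the genes than between the genotypes. FPKM divides counts by coding length and library total, so levels of different genes can be set side by side. The median over the list was 1.40 in WT and 1.39 in null, where the median over all genes tested was 1.26 and 1.18. The ratio exceeded 1 for 26 of the 35 genes in WT and for 24 in null. Cdk1 stood highest, with 5.46 and 4.24 in WT and 4.67 and 5.34 in null, at percentile 90.6 of the genes tested. Ndc80 (3.45 and 3.96 in WT), Mad2l1 (4.40 and 2.73), Cenpe (3.12 and 3.03) and Pttg1 (3.43 and 2.64) came next. The WT replicates of Mad2l1 spanned those of Ndc80 and Cenpe, and those of Pttg1 spanned those of Cenpe. This order is therefore not fully settled, though both Ndc80 values lay above those of Cenpe and Pttg1. At the low end, apart from Ccnb3, stood Espl1 with 0.410 and 0.411 in WT, Aurkc with 0.570 and 0.254, Plk1 with 0.466 and 0.410 and Plk4 with 0.605 and 0.463. Partners in one step could thus lie far apart: securin at a WT mean of 3.03 and the separase that it inhibits at 0.410. Abundant RNA did not go with a high ratio throughout. The highest WT RNA levels per length were Cks2 at 211 FPKM, Nek2 at 159, Aurka at 140, Cdc20 at 138 and Ccnb2 at 114, with mean WT ratios of 0.959, 2.21, 1.05, 1.07 and 2.78.

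**Figure D3:**
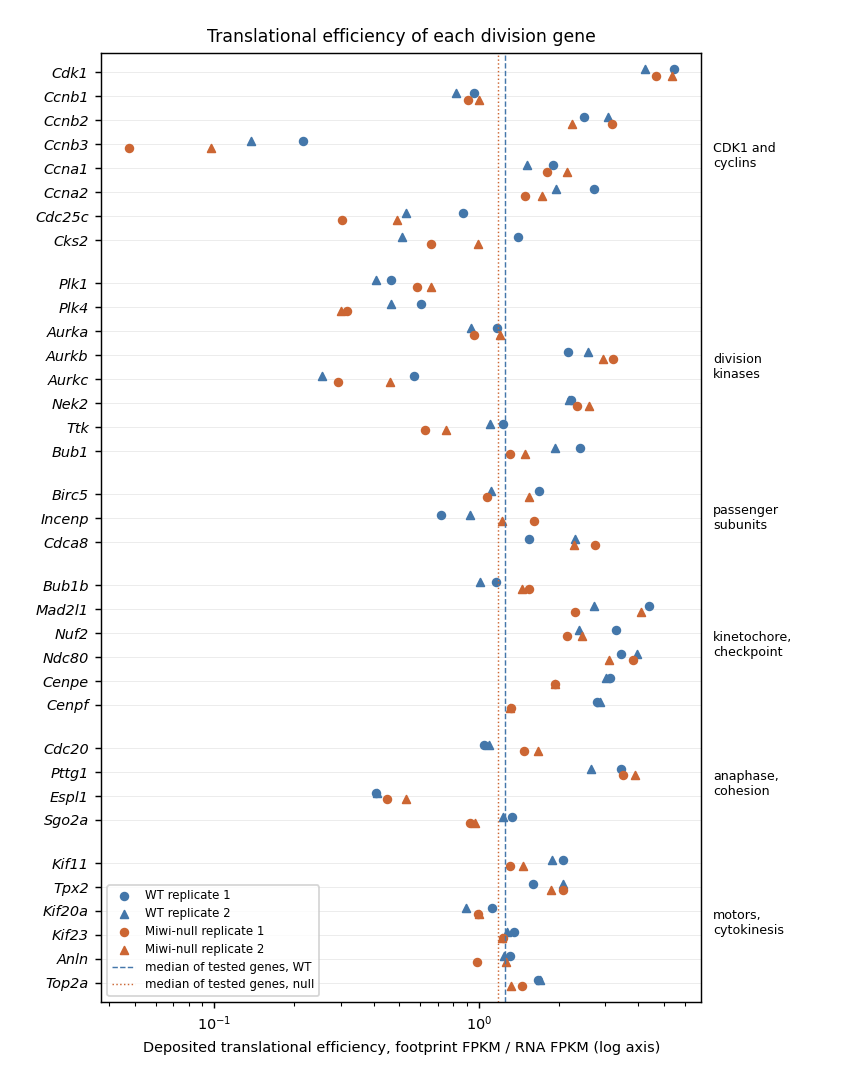
Deposited translational efficiency (footprint FPKM over RNA FPKM, log axis) of each division gene in WT (blue) and null (orange), replicate 1 as circles and replicate 2 as triangles. The lines are the medians of the genes tested, 1.26 in WT and 1.18 in null, and 26 genes have a WT mean above 1.

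The change in TE was tested as the interaction of genotype and assay. It was called for 8 of 35 genes (22.9%), 3 higher and 5 lower, against 14.9% of all genes, 7.33% higher and 7.56% lower. Cdc20 rose by 0.67 ± 0.13 (edgeR adjusted p = 0.011), Plk1 by 0.62 ± 0.15 (edgeR adjusted p = 0.0278) and Bub1b by 0.58 ± 0.13 (edgeR adjusted p = 0.0233). Their deposited ratios did not overlap between genotypes: 1.04 and 1.09 in WT against 1.48 and 1.67 in null for Cdc20, 0.466 and 0.410 against 0.585 and 0.661 for Plk1, and 1.16 and 1.01 against 1.55 and 1.45 for Bub1b. Cenpf fell the most among the genes called, by 0.99 ± 0.15 (edgeR adjusted p = 0.00461), its ratio going from 2.79 and 2.85 to 1.33 and 1.31. The other 4 falls were Plk4 (0.67 ± 0.16 lower), Ttk, Cenpe and Bub1, with edgeR adjusted p of 0.0284, 0.0192, 0.0293 and 0.0473. Ttk fell by 0.65 ± 0.14, Cenpe by 0.55 ± 0.13 and Bub1 by 0.51 ± 0.14. Incenp came closest to a call among the rest (0.90 ± 0.26, edgeR adjusted p = 0.053).

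All 3 genes with higher TE had fallen in RNA and all 5 with lower TE had risen in RNA. The TE contrast subtracts the RNA change, so these calls share the RNA libraries and are not separate evidence. Of the 8 calls, that of Cenpf alone held under all 17 alternatives with a TE value. Cdc20 lost its call without WT RNA replicate 1, null RNA replicate 1 or null RNA replicate 2 (edgeR adjusted p from 0.0631 to 0.0894). Plk1, Plk4 and Cenpe lost theirs without any RNA library or null RPF replicate 2 (edgeR adjusted p from 0.0793 to 0.143, 0.0665 to 0.129 and 0.0614 to 0.148). Ttk did so without any RNA library or null RPF replicate 1 (edgeR adjusted p from 0.0504 to 0.103). For Bub1 it was any RNA library, WT RPF replicate 1 or null RPF replicate 1 (edgeR adjusted p from 0.0593 to 0.188), and for Bub1b any RNA library or either null footprint library (edgeR adjusted p from 0.0566 to 0.141). By count, none rose in TE without WT RNA replicate 1, null RNA replicate 1 or null RNA replicate 2, 1 without WT RNA replicate 2 and 6 without WT RPF replicate 2. Only 1 fell without any RNA library, and 3 without either null footprint library. Over all genes, TE calls also became fewer without any single RNA or null footprint library, and more numerous without WT RPF replicate 2. The split depends on scaling: with library totals 1 rose and 7 fell, while all genes went from 1176 higher and 1214 lower to 679 and 1648 and their median from 0.04 to -0.10. Scaling each assay apart gave 3 and 6 among the division genes and 925 and 1448 over all genes. With the length trend removed 5 rose and 3 fell, beside 1224 and 1117 over all genes.

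Footprint changes were mostly smaller than RNA changes where RNA was called. Over the 35 genes the log2 changes in RNA and footprints correlated at r = 0.471 (Spearman rho = 0.484), beside r = 0.584 and rho = 0.478 over all genes tested. The points share libraries and their scaling, and genes are not independent replicates, so this is a description. The footprint change was smaller in size than the RNA change for 13 of the 14 genes called in RNA, and for 78.2% of all genes called in RNA. Kif23 was the exception. Over the whole list it was smaller for 21 of 35 genes, against 57.7% of all genes tested. Genes picked for an RNA call lean toward this pattern whatever their footprints do, so the share in all called genes is the value to set it against.

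**Figure D4:**
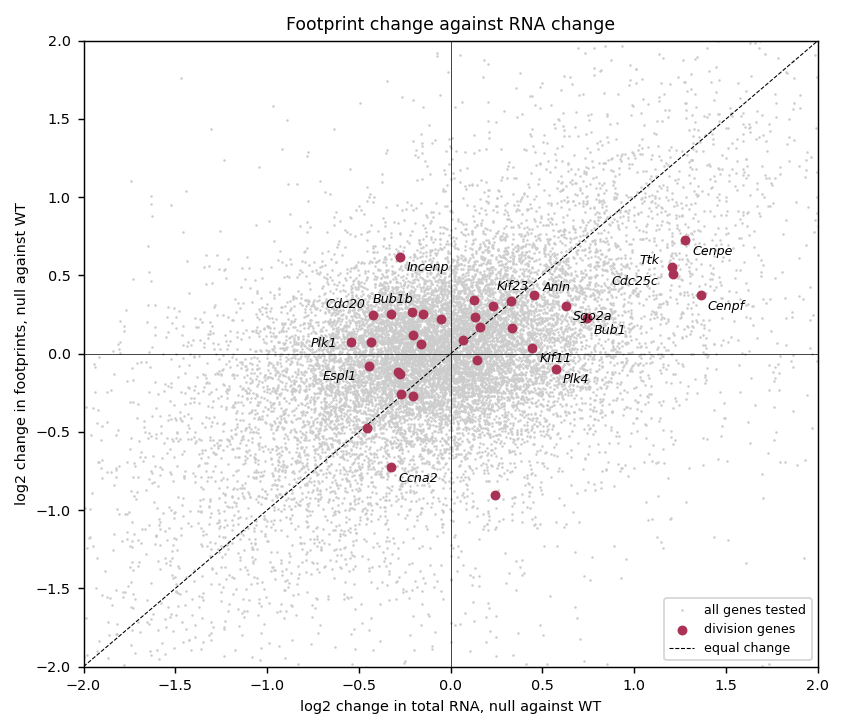
Log2 footprint change against log2 RNA change, null against WT, for the 35 division genes (red) and all genes tested (grey), with names for genes called in either assay and a dashed line of equal change. The axes end at 2 in each direction and leave out 934 of the genes tested, none of them a division gene. Cenpf, Cenpe, Ttk and Cdc25c lie to the right and below the line, and Cdc20, Bub1b and Plk1 lie left of 0 in RNA and above 0 in footprints.

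Genes called in RNA, whether higher or lower, had a longer median coding sequence than those not called. The median coding length was 3166.5 bases for the 10 risers in RNA (1341 to 8991), 2482.5 for the 4 that fell (1497 to 6354) and 1263 for the 21 not called. The RNA change correlated with log2 coding length at r = 0.560 over the 35 genes and at r = 0.179 over all genes tested. In footprints the values were 0.361 and 0.0993, and in TE -0.364 and -0.0924. These are descriptions over genes that share libraries. Removing a smooth length trend within each library left 8 division genes higher and 4 lower in RNA, with Kif23 and Anln no longer called. Over all genes the same step left 2450 higher and 3454 lower.

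A wider list of 115 division genes, all tested, showed how the 35 sit among their partners. In RNA 36 rose and 16 fell (45.2% called, against the 37.3% over all genes), in footprints 21 and 5 (22.6% against 25.4%), and in TE 9 and 14 (23 of 115, against 14.9%). Rises in RNA were most frequent among condensin subunits, which compact chromosomes, and centriole duplication genes: 5 of 8 rose in each, and 0 fell. Of 30 spindle motors and assembly factors 12 rose and 4 fell, of 34 kinetochore and checkpoint partners 8 rose and 3 fell, and of 18 genes of CDK1 control 3 rose and 3 fell. Of 17 subunits and partner enzymes of the anaphase-promoting complex, 3 were higher and 6 lower. Over all genes tested 16.5% were higher and 20.8% lower in RNA. The 3 of 17 higher here and the counts for CDK1 control thus lay near the background. Of the kinetochore and checkpoint partners 32.4% were called in either direction, against 37.3% of all genes. These lists are short, and no list was tested against the rest.

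By name, the 3 largest RNA rises were Hmmr, a spindle pole protein (2.34 ± 0.12), Knl1, the kinetochore platform for BUB1 (1.74 ± 0.17), and Cenpk, an inner kinetochore subunit (1.68 ± 0.14), with edgeR adjusted p of 5.12e-06, 0.000134 and 4.93e-05. Hmmr went from 12.3 and 14.97 RNA CPM in WT to 68.5 and 69.7 in null, and Knl1 from 49.1 and 62.2 to 184 and 187. Both also led the footprint rises (2.0 ± 0.11 and 1.42 ± 0.17, edgeR adjusted p = 4.35e-06 and 0.000417), followed by Ube2c, an enzyme that feeds ubiquitin to the anaphase-promoting complex (1.21 ± 0.16, edgeR adjusted p = 0.000787). The largest RNA falls were Anapc10, a subunit of that complex (-1.39 ± 0.17), Arpp19, a phosphatase inhibitor of mitotic entry (-1.23 ± 0.20), and Cdc25b, a phosphatase related to Cdc25c (-1.15 ± 0.27), with edgeR adjusted p of 0.000373, 0.00177 and 0.0114. Cdc25b was scarce, at 1.61 to 4.37 RNA CPM. Footprint falls were small: Mastl, the kinase upstream of Arpp19 (-0.48 ± 0.14), Spc25 of the NDC80 complex (-0.45 ± 0.14) and Anapc5 (-0.44 ± 0.10), with edgeR adjusted p of 0.036, 0.0488 and 0.0107. In TE the largest rises were Anapc13 (1.26 ± 0.15), Anapc10 (1.18 ± 0.22) and the checkpoint protein Mad1l1 (0.91 ± 0.17), with edgeR adjusted p of 0.00194, 0.0104 and 0.0108. The largest TE falls were Mis12 of the kinetochore (-1.12 ± 0.29), Anapc16 (-1.02 ± 0.22) and the condensin subunit Smc2 (-0.89 ± 0.17), with edgeR adjusted p of 0.0365, 0.0203 and 0.0111. Single libraries were not left out for these partner genes.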

How the data were processed

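Total RNA and footprint libraries, 2 per genotype, were grouped by the sample titles. The authors deposited fragment counts per transcript, which are whole numbers and not normalized per the file headers, for 99671 transcripts. The authors' FPKM values use the length column, which is a coding length (84.7% of lengths are multiples of 3), and the library total. The authors' deposited translational efficiency is the ratio of footprint FPKM to RNA FPKM, which held within 1e-8 in 100% of rows. Per the submitters' processing notes, the tools included STAR 2.5.0a, Bowtie 1.2.2 and cutadapt 2.5 and the build was GRCm38. The counter, its strand setting and its treatment of multiply mapped fragments are not stated in the labels or headers, so overlapping genes on opposite strands cannot be told apart. A merged table was not used.

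Counts were tested in R 4.3.3 with edgeR 4.0.16: filterByExpr (minimum count 10, minimum total 15; 16051 genes kept), TMM over all 8 libraries, and the robust quasi-likelihood test with 4 groups and 4 residual degrees of freedom. The test was run on simulated counts that had the same spread for every gene and library. That check therefore does not cover footprint replicates that spread further than RNA replicates. Contrasts were null against WT in RNA, in footprints and in their interaction (TE). The call rule was an adjusted p under 0.05, by Benjamini-Hochberg across the tested genes. CPM are relative to the TMM-scaled library, 1 count being 0.0340 to 0.0893 CPM, so changes are relative to most other genes. The alternatives used DESeq2 1.42.0, limma 3.58.1 and other scalings, filters, transcripts and libraries. The rule for names took Piwil1, all 35 genes, and the 3 largest called rises and falls per contrast among the partner genes. The 35 genes and all lists were chosen with earlier results of these data known. Of the 35 gene IDs 31 matched the table of gene names and all 35 symbols matched RefSeq, the source of the coordinates.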

Additional observations from a re-analysis of the deposited data

How the results depend on the processing

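No division gene with a call changed direction under any alternative. Of the calls, 6 of 14 in RNA (Cdc25c, Ttk, Bub1, Cenpe, Cenpf and Sgo2a), 2 of 8 in footprints (Ccna2 and Cenpe) and 1 of 8 in TE (Cenpf) held under all 18 alternatives (17 for TE) other than the added pairings below. With the libraries of each assay alone, 16 rose and 11 fell in RNA (59.3% of all genes called) and 1 rose in footprints (12.7% of all genes called). With limma-voom and sample weights, 8 fell in RNA and 3 rose in footprints (53.3% and 17.1% of all genes called). Library totals in place of TMM gave 4 risers in footprints and 1 in TE, and medians of 0.16 in RNA and -0.13 in TE. Over all genes 24.4% were then called in footprints and 14.5% in TE. Removing the length trend gave 3 risers in footprints, and 5 risers and 3 fallers in TE (25.4% and 14.6% of all genes called). The cause of these shifts was not tested.

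Leaving out each library in turn gave 6 to 11 risers and 1 to 7 fallers in RNA, 2 to 9 and 1 to 3 in footprints, and 0 to 6 and 1 to 6 in TE. The medians ran from -0.032 to 0.133 in RNA, 0.146 to 0.207 in footprints and -0.0470 to 0.179 in TE. An arm left with 1 library was assumed to vary like the other groups. The number of calls over all genes moved in these fits as well. With the replicate number as a block, 2 rose in footprints, and 1 rose and 1 fell in TE, while RNA gave 9 and 3. Over all genes that block gave 31.3% called in RNA, 19.1% in footprints and 7.7% in TE. Replicate numbers did not pair the samples: deviations of same-numbered libraries correlated at -0.11 to 0.07 between most groups and at -0.81 between WT and null footprints (10171 genes). Added after seeing the data, on footprints alone, crossed pairs gave 18 risers and 4 fallers (50.04% of all genes called), and the same numbers as a replicate block gave 0 and 0 (6.6%). The labels do not settle whether the replicate numbers of a footprint group are crossed, and the footprint counts move with that choice.

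Footprint replicates differed far more than counting noise, and Ccnb3 had too few footprints to follow. With 2 libraries per group a missed call does not show that a gene is unchanged.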
